A study of Mus musculus with 24 samples.

Results

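The 9 genes Mbp, Mag, Mog, Mobp, Cnp, Mal, Cldn11, Opalin and Pllp encode major structural proteins of central myelin. They were chosen by name, and each was found once among the 25135 genes listed at either age. RNA was sequenced from cortical nuclei sorted for SUN1-GFP, a nuclear membrane tag that here marks the descendants of Emx1-positive progenitors of the dorsal telencephalon. WT mice were Kdm6b wt/wt and Kdm6b-cKO mice were Emx1-Cre with Kdm6b f/f, both with the SUN1-GFP reporter on a congenic C57BL/6 background, and each genotype gave 6 libraries at P1 and 6 at P30. Kdm6b encodes a demethylase that removes the repressive histone mark H3K27me3. Cre follows Emx1, so the deletion reaches glutamatergic neurons, astrocytes and oligodendrocytes alike, and these cells were not separated. The sources used here do not give the sex or the animal behind each library, so the tests below measure the spread between libraries. The mean level of Y-linked genes, in log2, was -3.06 in Kdm6b-cKO library 2 at P1. In all other libraries of both ages it lay between 4.17 and 5.81.

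Myelin is the membrane that oligodendrocytes wrap around axons. In compact myelin the cytoplasm is squeezed out between the layers. MBP, the basic protein that glues the cytoplasmic faces together, and MOBP belong to this compartment. MAL and PLLP (plasmolipin) are tetraspan proteolipids that help to carry lipid-rich membrane to the sheath. CLDN11 forms the tight junctions between the turns. MAG, an adhesion molecule that faces the axon, and CNP, a phosphodiesterase that keeps cytoplasmic channels open, lie in non-compact myelin. MOG sits on the outermost surface, and OPALIN is a membrane glycoprotein of mature oligodendrocytes. SOX10 and MYRF are transcription factors known to drive these genes as oligodendrocytes mature.

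Values are in FPKM, sequenced fragments corrected for transcript length and for library size. The tables hold no read totals. Steps of 1 read among low values gave an effective depth, assuming fragments of 200 bases, of 792000 to 3815000 reads in WT and 187000 to 2813000 in Kdm6b-cKO at P1, and of 5017000 to 8141000 and 1903000 to 7912000 at P30. At P30, 1 WT library (number 0) and 3 Kdm6b-cKO libraries (numbers 0, 1 and 5) carried the 45S precursor of ribosomal RNA at under 1000 FPKM, and the other 8 carried more. At P1, WT libraries 2 to 5 and Kdm6b-cKO library 5 detected 397 to 794 of 1128 olfactory receptor genes, while each of the remaining 7 libraries detected 2 to 22. At P1, Kdm6b-cKO libraries 0 and 1 carried 3423 and 3239 FPKM of the 45S precursor and the other 10 libraries 28.7 to 899 FPKM. These sides were defined from the values, as no label names a batch, and results are also given within them. At P1, Kdm6b itself lay between 24.9 and 51.0 FPKM in WT libraries and between 15.0 and 38.4 FPKM in those of Kdm6b-cKO. At P30, these bounds were 16.9 and 26.4 FPKM in WT, then 17.5 and 28.1 FPKM for Kdm6b-cKO. Its groups overlapped at both ages (log2 fold changes -0.41 and 0.12, limma adjusted p = 0.534 and 0.828). Reads of the floxed exons were not separated from the rest of the gene, so the genotypes are those of the library labels. By quantitative PCR on sorted nuclei, the paper reported an efficient loss of Kdm6b mRNA in Kdm6b-cKO.

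The bases upstream of 4 genes are shown, both of non-compact myelin (Mag and Cnp) and both of the surface (Mog and Opalin), since these pairs hold both the most and the least negative log2 fold change at P30. Of the 9 genes, 8 had a promoter in the RefSeq table of assembly GRCm38.p6, and its upstream bases matched mm9 exactly, which gave the coordinates. The 250 bases before each start were searched on both strands for SOX-type letters (ACAAAG as well as ACAATG and AACAAT, of which the last pair can overlap) and MYRF-type letters (CTGGCAC and CTGGTAC). Capitals mark the matches. For Mag, RefSeq has 3 promoters and the one nearest the annotated start was taken. Each window is given 5′ to 3′ on the strand of its gene, Mag at chr7:31699883-31700132 (minus), Mog at chr17:37160344-37160593 (minus), Opalin at chr19:41151604-41151853 (minus) and Cnp at chr11:100436003-100436217 (plus), where the last 35 bases were left out because the annotation counts them as part of the gene.
Mag: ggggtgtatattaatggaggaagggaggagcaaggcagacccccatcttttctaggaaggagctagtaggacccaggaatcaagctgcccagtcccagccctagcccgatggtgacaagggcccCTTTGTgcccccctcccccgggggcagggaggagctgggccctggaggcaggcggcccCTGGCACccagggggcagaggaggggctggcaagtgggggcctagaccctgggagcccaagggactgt
Mog: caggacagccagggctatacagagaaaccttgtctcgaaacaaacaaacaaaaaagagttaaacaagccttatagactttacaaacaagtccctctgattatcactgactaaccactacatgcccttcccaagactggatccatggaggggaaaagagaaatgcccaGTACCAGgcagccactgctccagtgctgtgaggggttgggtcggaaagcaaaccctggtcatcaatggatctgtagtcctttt
Opalin: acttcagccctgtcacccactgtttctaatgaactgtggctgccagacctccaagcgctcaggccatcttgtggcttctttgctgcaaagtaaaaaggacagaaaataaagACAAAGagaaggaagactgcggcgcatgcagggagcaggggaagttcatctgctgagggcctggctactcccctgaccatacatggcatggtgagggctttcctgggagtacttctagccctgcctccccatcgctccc
Cnp: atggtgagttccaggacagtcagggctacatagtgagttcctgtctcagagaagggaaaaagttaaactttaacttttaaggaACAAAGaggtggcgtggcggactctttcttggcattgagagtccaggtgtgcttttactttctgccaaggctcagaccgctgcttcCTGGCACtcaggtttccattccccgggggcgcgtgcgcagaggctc
ACAAAG occurred in the windows of Mag, Mobp, Cnp and Opalin, 4 of 8, against 16.5% of 32544 promoters of the same length. Mobp held it 6 times. ACAATG and AACAAT occurred in 0 of the 8 windows, against 10.5% and 9.34% of all promoters. Any of the 3 SOX-type forms thus occurred in 4 of 8 windows, against 29.4% of all promoters. A MYRF-type form occurred in Mag, Mog and Cnp, 3 of 8, against 5.94% of all promoters. It lay 68, 83 and 81 bases before the RefSeq start. That start was 31 bases upstream of the annotated start for Mag, at it for Mog and 35 bases inside the gene for Cnp. The distances are therefore not on a common scale with the annotated starts or with the shortened Cnp window above. Mag, which fell at P30, and Cnp, which did not pass the test, both held letters of both types. Mal, Cldn11 and Pllp held none of these letters in this window.
In the mm9 annotation, the gene Mog spans chr17:37147691-37160343, Opalin chr19:41136964-41151603, Pllp chr8:97198795-97220142 and Mal chr2:127458962-127482431, all on the minus strand, while Mobp spans chr9:120058860-120090602 and Cldn11 chr3:31048868-31063246 on the plus strand. The values are sums over all annotated transcripts of a gene, with no exon or UTR told apart.

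At P30, all 9 genes had a negative log2 fold change, with a median of -1.14 against -0.05 over all 13289 genes tested. Mag and Mbp fell past the threshold of an adjusted p under 0.05 and more than 2-fold (limma, Benjamini-Hochberg over all genes tested), as 30 genes did, 0.226% of those tested. For Mag, Mbp, Mog, Opalin and Pllp, 5 of the 9, the highest Kdm6b-cKO value was under the lowest WT value, against 1.05% of all genes tested. At an unadjusted p under 0.05, 6 of the 9 were lower, against 7.37% of all genes. These libraries hold several cell types, so fewer oligodendrocytes and less of each RNA per oligodendrocyte cannot be told apart.

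**Figure D1:**
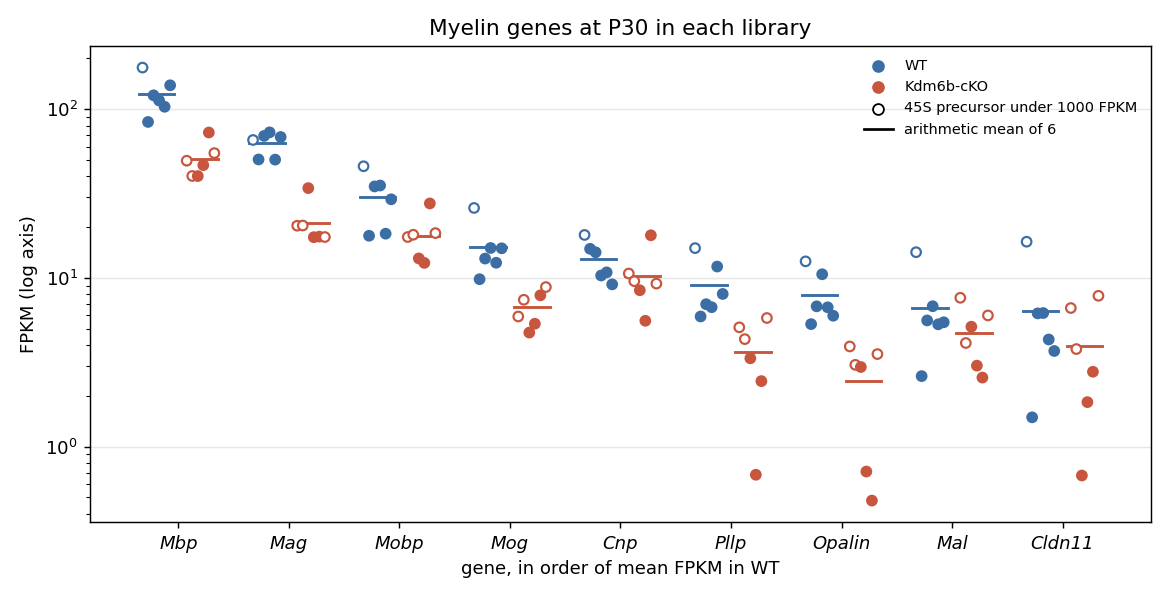
FPKM of the 9 myelin genes at P30 on a log axis, with 1 point for each of 6 WT (blue) and 6 Kdm6b-cKO (red) libraries and a line at the arithmetic mean. Open points are libraries with less than 1000 FPKM of the 45S precursor. The red points lie below all blue points for Mbp, Mag, Mog, Pllp and Opalin and mix with them for Mobp, Cnp, Mal and Cldn11.

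Of the 2 genes of non-compact myelin, Mag passed the threshold and Cnp did not. The ratio between them within a library did not pass adjustment (exact permutation test, adjusted p = 0.0623). Mag lay between 50.2 and 72.8 FPKM in the WT libraries (median 67.0) and between 17.4 and 34.1 FPKM in those of Kdm6b-cKO (median 19.0). The groups were far apart, and Kdm6b-cKO library 2 alone, at 34.1 FPKM, stood above the other 5, which kept within 17.4 to 20.4 FPKM. The WT mean of 62.8 ± 9.97 FPKM (SD, n = 6) stood against 21.2 ± 6.45 FPKM in Kdm6b-cKO (SD, n = 6), a fall of 3.01-fold (log2 fold change -1.59, standard error 0.19, limma adjusted p = 0.00538). By its p, Mag ranked 2 among all genes tested. In mm9, Mag spans 31684202 to 31699851 of chromosome 7 (minus strand), with 3 annotated transcripts that share 1 start.
Cnp lay between 9.15 and 18.0 FPKM in the WT libraries (median 12.5) and between 5.57 and 17.9 FPKM in those of Kdm6b-cKO (median 9.41). Kdm6b-cKO library 4 reached 17.9 FPKM, close to the highest WT library, and the groups overlapped. The log2 fold change was -0.38 (standard error 0.26, 95% interval -0.93 to 0.17, limma adjusted p = 0.577), so a change from no difference to almost 2-fold lower lay within the error. An exon of Cnp, which lies on the plus strand of chromosome 11 from 100436218 to 100453043, overlaps an exon of Dnajc7 on the other strand. Whether the counting used strand is not given in the sources used here, so part of the Cnp value may be Dnajc7 reads.

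Among the compact myelin genes, Mbp was the most abundant and the only one of 5 to pass. Mbp lay between 84.0 and 176 FPKM in the WT libraries (median 117) and between 40.1 and 72.7 FPKM in those of Kdm6b-cKO (median 48.0). The highest Kdm6b-cKO library, number 4, stayed below the lowest WT library, number 1. The WT mean of 123 ± 32.0 FPKM (SD, n = 6) stood against 50.7 ± 12.2 FPKM in Kdm6b-cKO (SD, n = 6), a fall of 2.40-fold (log2 fold change -1.27, standard error 0.20, limma adjusted p = 0.0204). The log2 fold change kept within -1.38 and -1.15 under all alternatives, but the call did not hold with fewer libraries: without WT library 2, 3, 4 or 5 the limma adjusted p was 0.0681, 0.0624, 0.0593 and 0.0608, and without Kdm6b-cKO library 0 or 1 it was 0.0514 and 0.0533. The locus, on the plus strand of chromosome 18 from 82644538 to 82755029, has 16 annotated transcripts from 13 starts. It also encodes the upstream Golli transcripts, which are known outside oligodendrocytes, and a value per gene does not separate them from the classic myelin forms.
Mobp lay between 17.8 and 45.9 FPKM in the WT libraries (median 32.0) and between 12.3 and 27.6 FPKM in those of Kdm6b-cKO (median 17.7). WT libraries 1 and 4, at 17.8 and 18.3 FPKM, lay among the Kdm6b-cKO libraries. Its log2 fold change of -0.73 (standard error 0.26) had p = 0.0260 in an exact two-sided permutation test of this single gene and an adjusted p of 0.270 over all genes in limma.
Pllp lay between 5.91 and 15.0 FPKM in the WT libraries (median 7.51) and between 0.681 and 5.78 FPKM in those of Kdm6b-cKO (median 3.84). The groups did not touch, but the highest Kdm6b-cKO library (5.78) was close to the lowest WT library (5.91). Pllp was seen in 58 to 199 reads of each WT library but in 3 to 59 reads of each Kdm6b-cKO library. The log2 fold change was -1.47 (standard error 0.44), 2.77-fold lower, and missed the threshold over all genes (limma adjusted p = 0.193).
For Mal and Cldn11 the SD of the WT libraries (3.94 and 5.21 FPKM) exceeded the difference between the genotype means. Mal lay between 2.62 and 14.2 FPKM in the WT libraries (median 5.53) and between 2.57 and 7.62 FPKM in those of Kdm6b-cKO (median 4.63). Its log2 fold change was -0.40 (standard error 0.37, limma adjusted p = 0.696). Cldn11 lay between 1.49 and 16.4 FPKM in the WT libraries (median 5.24) and between 0.674 and 7.83 FPKM in those of Kdm6b-cKO (median 3.28), or from 15 to 215 and from 3 to 76 reads. WT library 0 was the highest and WT library 1 the lowest WT library for both genes. The log2 fold change of Cldn11 was -0.71 (standard error 0.60, 95% interval -2.01 to 0.58, limma adjusted p = 0.670), and it was 0.07 with library weights estimated by limma and -1.35 with the 45S side as a term.

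The 2 surface proteins were both lower in every Kdm6b-cKO library than in any WT library. Mog lay between 9.82 and 26.0 FPKM in the WT libraries (median 14.0) and between 4.74 and 8.82 FPKM in those of Kdm6b-cKO (median 6.66), which stood for 912 and 282 reads in all. Its log2 fold change was -1.14 (standard error 0.23), 2.20-fold lower, just outside the threshold (limma adjusted p = 0.0617).
Opalin was 3.82-fold lower (log2 fold change -1.93, standard error 0.49, limma adjusted p = 0.131). This was the most negative of the 9 here, but with a pseudocount of 1 (-1.47) or library weights (-1.15) it was less negative than that of Mag (-1.55 and -1.63). It lay between 5.32 and 12.5 FPKM in the WT libraries (median 6.74) and between 0.479 and 3.92 FPKM in those of Kdm6b-cKO (median 3.01). In reads, the WT libraries held 212, 69, 88, 116, 120 and 73, in the order of their numbers, and the Kdm6b-cKO libraries 58, 53, 17, 4, 2 and 39. Kdm6b-cKO libraries 3 and 4, with 4 and 2 Opalin reads, set the wide error. They also had the highest 45S precursor (15400 and 25900 FPKM) and the lowest effective depth (2578000 and 1903000 reads) of the 12 libraries, and the part of either in the Opalin value was not tested. For Mag, Mbp, Mog, Opalin and Pllp alike, the exact permutation test of a single gene gave p = 0.00216, the smallest that 6 against 6 libraries allow.

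**Figure D2:**
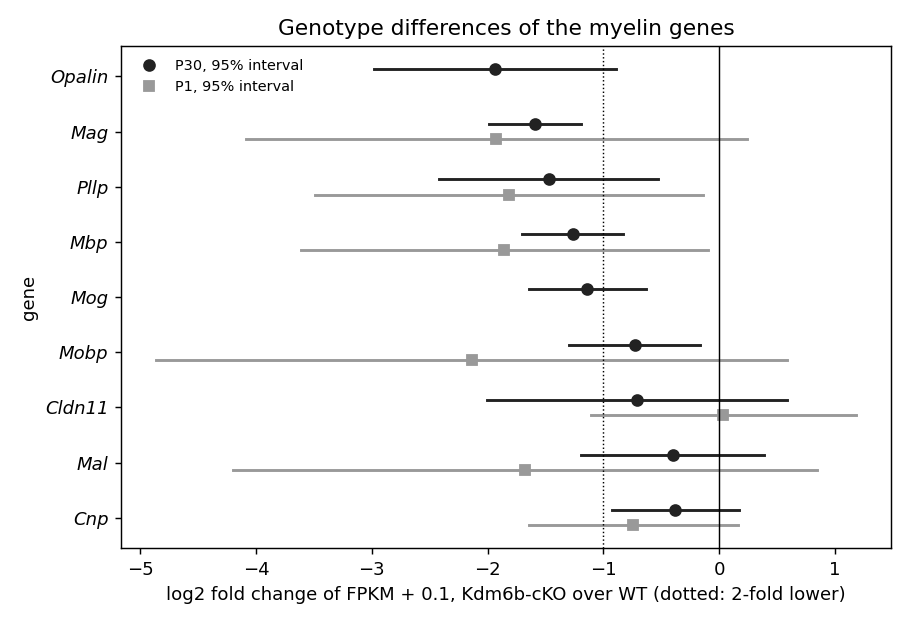
Log2 fold change of FPKM + 0.1 in Kdm6b-cKO over WT with its 95% interval from limma, at P30 (black circles) and P1 (grey squares), for the 9 myelin genes ordered by the P30 value. The P30 intervals of Opalin, Mag, Pllp, Mbp, Mog and Mobp lie below 0, the P1 intervals are wider for 6 of the 7 genes tested at both ages (not Cldn11), and Opalin and Mog were not tested at P1 because their mean was under 1 FPKM.

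The differences at P30 were also read within the 45S sides. Among the 8 libraries with the higher 45S level (5 WT and 3 Kdm6b-cKO), the log2 differences were -1.49 for Mag, -1.10 for Mbp, -1.13 for Mog, -2.62 for Opalin and -2.03 for Pllp. For these 5 genes the groups were apart over all 12 libraries, so they had to be apart on this side too. The exact permutation p of 0.0179, the smallest that 5 against 3 allow, is therefore no further test of them. The other 4 genes were also lower on that side, from -0.30 for Cnp to -1.30 for Cldn11, without passing. On the low side, 1 WT and 3 Kdm6b-cKO libraries cannot give a p under 0.25, and all 9 genes were lower there, from -0.87 for Cnp to -1.88 for Mbp. The 1 WT library of the low side is number 0, the highest WT library in 8 of the 9 genes, so the differences there rest on that library. With the 45S side as a term of the limma fit, all of Mag, Mbp, Mog, Opalin and Pllp passed (adjusted p from 0.00357 to 0.00820), while 2.75% of all genes were then called lower.

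Whether the genes differed in their change was tested on the ratios between them within a library, which does not depend on how libraries were scaled. Of the 36 pairs, 13 had p under 0.05 in an exact two-sided permutation test, and 0 passed Benjamini-Hochberg adjustment over the pairs (smallest adjusted p = 0.0623). The ratio of Mal to Opalin had the smallest p. Mal was below Opalin in WT, at a mean log2 ratio of -0.36 ± 0.41 (SD, n = 6), and above it in Kdm6b-cKO, at 1.17 ± 0.72 (SD, n = 6), a difference of 1.53 (exact permutation test, p = 0.00216, adjusted p = 0.0623). Against Cnp, the other gene of non-compact myelin, Mag was lower in Kdm6b-cKO by a log2 ratio difference of -1.21 (exact permutation test, p = 0.00866). The ratios of Mbp to Mag and to Mog did not pass even unadjusted, with differences of 0.32 for Mag (exact permutation test, p = 0.266) and -0.13 for Mog (exact permutation test, p = 0.403). Under some settings pairs did pass adjustment: 7 pairs passed adjustment with a pseudocount of 1, 7 without Kdm6b-cKO library 2 and 2 without Kdm6b-cKO library 4.

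**Figure D3:**
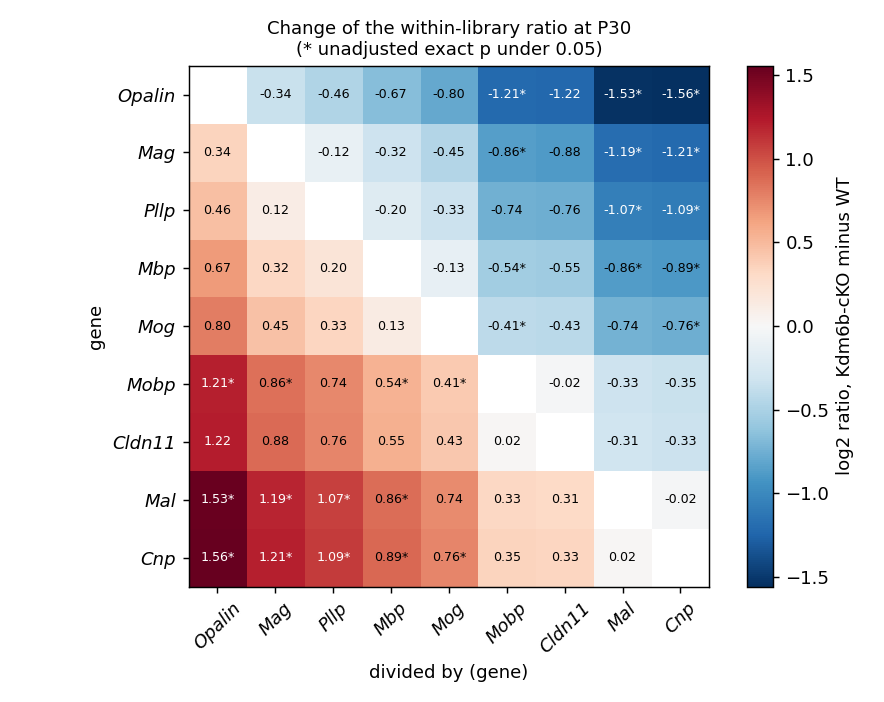
Change of the within-library log2 ratio of each gene (row) to each other gene (column) at P30, Kdm6b-cKO minus WT, for the 9 myelin genes. Blue means that the row gene was lower relative to the column gene in Kdm6b-cKO, and an asterisk marks an unadjusted exact p under 0.05, as in 13 of 36 pairs. Opalin, Mag, Pllp, Mbp and Mog are blue against Mobp, Cldn11, Mal and Cnp.

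The levels were also put in order within each genotype, and the orders were not tested against each other. In WT at P30, the mean FPKM fell in the order Mbp, Mag, Mobp, Mog, Cnp, Pllp, Opalin, Mal and Cldn11. The first 3 steps were found in 6 of 6 WT libraries. Each had p = 0.0312 (exact sign-flip permutation test), the smallest unadjusted p that 6 libraries allow, and an adjusted p of 0.0833 over 8 steps. The neighbours from Mog downwards did not differ beyond their spread. In Kdm6b-cKO the order was Mbp, Mag, Mobp, Cnp, Mog, Mal, Cldn11, Pllp and Opalin. There Mag and Mobp averaged 21.2 and 17.8 FPKM (Mag higher in 4 of 6 libraries, exact permutation test, p = 0.438). Of the summed FPKM of the 9 genes, which lay between 192 and 390 in WT and between 93.4 and 152 in Kdm6b-cKO, Mbp made up 44.7% in WT and 41.7% in Kdm6b-cKO. The share of Cnp was 4.88% ± 1.57 and 8.20% ± 1.99, and that of Mag 23.5% ± 3.56 and 18.0% ± 6.62 (SD, n = 6 each, WT first).

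Agreement between the genes was read within each genotype, since the genotypes form separate clusters. In WT at P30, library 0 was the highest of 6 in 8 of the 9 genes and library 1 the lowest in 7. Over the 36 pairs of genes the median Pearson r across the 6 WT libraries was 0.69, and 34 pairs were positive. The median Spearman rho was 0.57. The agreement rested on few libraries for each pair: without the 2 farthest from the median of the pair's first gene, which differ from gene to gene, the median r was -0.20 and 15 pairs were positive. The closest pair in WT was Mal and Cldn11 (r = 0.98, exact permutation p = 0.00972, rho = 0.94, exact permutation p = 0.0167, and r = 0.66 without the 2 farthest libraries).
In Kdm6b-cKO the median r was 0.34 (median rho 0.31), and its difference from WT was not tested. There, 22 of 36 pairs were positive, and without the 2 farthest libraries the median r was 0.52 with 30 positive pairs. Library 3 was the lowest in 4 genes, while library 4 was the highest in 3 genes (Mbp, Mobp and Cnp) and the lowest in 2 (Opalin and Mal). Library 2 was the highest for Mag and the lowest for Mbp, Mog and Cldn11. Mag had a median r of -0.30 with the other 8 genes. The closest pairs were Mobp with Cnp (r = 0.94, exact permutation p = 0.00833, rho = 0.77, exact permutation p = 0.103) and Mal with Opalin (r = 0.92, exact permutation p = 0.00278, rho = 0.94, exact permutation p = 0.0167), and without the 2 farthest libraries their r was 0.69 and 0.89. In exact permutation tests, 14 pairs in WT and 3 pairs in Kdm6b-cKO had an unadjusted p under 0.05, and 0 pairs passed adjustment in either genotype (smallest adjusted p = 0.1).

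Genes outside the list that followed the myelin genes were named by their correlation with the mean of the 9 over the 12 P30 libraries, each gene centred on its genotype mean. This is a description, and these libraries share their depth and scaling. The closest were Cplx1 (r = 0.99), a regulator of synaptic vesicle release, Ilk (0.97), a kinase of cell adhesion sites, Pebp1 (0.95), Timm23 (0.95), Trf (0.94), Plpp5 (0.94), Mfsd14a (0.94), Tspan7 (0.94), Cacybp (0.93) and Sgk1 (0.93). Of the 10, only Trf, the iron carrier transferrin, is on a list of oligodendrocyte genes used here, and it averaged 22.8 FPKM in WT against 10.4 FPKM for Kdm6b-cKO (log2 fold change -1.09, limma adjusted p = 0.264). The log2 fold changes of the other 9 lay between -0.43 and 0.30. With the mean of the other 8 myelin genes, the 9 genes themselves had r from 0.12 (Mag) to 0.82 (Mal), and 5% of all other genes tested had r above 0.74 with the mean of the 9.

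Other genes of the oligodendrocyte lineage were counted by list at P30. Of 20 further sheath, junction and cytoskeleton genes, all 20 were tested and 17 were lower (median log2 fold change -0.70, 8 at an unadjusted p under 0.05). Cmtm5, a MARVEL-domain membrane protein, fell from 71.0 ± 14.6 to 31.4 ± 6.46 FPKM (SD, n = 6 each, log2 fold change -1.17, limma adjusted p = 0.0204). Ppp1r14a, a phosphatase inhibitor, fell as well (log2 fold change -2.11, limma adjusted p = 0.0204). Hapln2, a link protein at the nodes, averaged 40.8 FPKM in WT against 11.6 FPKM for Kdm6b-cKO, outside the threshold (limma adjusted p = 0.0567). Of 16 lipid and mature oligodendrocyte enzymes, 15 were found, 14 were tested, 11 were lower (median -1.04) and Carns1, carnosine synthase, fell (-1.24, limma adjusted p = 0.0204).
Of 10 transcription factors of the lineage, 8 were tested and 6 were lower (median -0.25). Sox10 alone fell, from 7.37 to 11.5 FPKM in the WT libraries to 1.87 to 4.19 FPKM in Kdm6b-cKO (log2 fold change -1.46, limma adjusted p = 0.0204). Myrf (-0.43, adjusted p = 0.557), Sox8 (-0.46, 0.574), Olig1 (-0.07, 0.943) and Olig2 (-0.59, 0.561) did not pass in limma. The precursor and pre-myelinating list had 4 of 12 tested genes lower and a median of 0.24, with 0 genes at an unadjusted p under 0.05. Its most abundant genes over all 12 libraries were Ptprz1 (0.21), Bcas1 (0.04) and Cacng4 (0.43), given as log2 fold changes.

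In 3 marker lists of other cell types most tested genes were higher in Kdm6b-cKO at P30, though the list sums overlapped between the genotypes. Their part in the myelin values was not tested. Of all 13289 genes tested, 6001 were higher and 7288 lower. Genes entered by their mean over both genotypes, so a gene under 1 FPKM in WT could still be tested. All 9 tested genes of the GABAergic list of 12 were higher in Kdm6b-cKO (6 at an unadjusted p under 0.05, against 5.34% of all genes tested, 0 called, median 1.58), with summed levels of 41.5 to 530 FPKM among WT libraries and 203 to 379 FPKM among Kdm6b-cKO libraries. Of 10 leptomeningeal, choroid plexus and ependymal markers, 6 were tested and all 6 were higher (median 1.64, sums from 5.09 to 37.6 and from 21.1 to 48.6 FPKM). Of 10 microglia markers, 7 were tested and 5 were higher (median 1.30, sums from 13.3 to 50.5 and from 20.4 to 60.1 FPKM). WT library 0, the highest in 8 of the 9 myelin genes, also had the highest WT sum of each of these 3 lists, and WT library 1, the lowest in 7, had the second highest (364, 23.3 and 19.1 FPKM). No marker of these 3 lists was at 0 in all 12 libraries.
The glutamatergic list had 8 of 10 genes lower (median -0.28, sums from 331 to 686 and from 248 to 771 FPKM), and the astrocyte list 8 of 10 (median -0.09, sums from 103 to 176 and from 98.4 to 162 FPKM). The endothelial and mural list had 2 of 4 tested genes lower (median 0.48, sums from 6.20 to 22.4 and from 11.7 to 30.9 FPKM). Schwann cells make peripheral myelin with some of the same proteins. Of 9 Schwann cell markers, 4 were tested and 2 were lower, Pmp2 and Foxd3 were at 0 in all 12 libraries, and the sums of 27.0 to 35.9 and 28.8 to 36.8 FPKM came mostly from Drp2 (25.6 FPKM in WT).

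At P1, before the cortex myelinates, the 9 genes were at low levels, from 0.478 FPKM (Opalin) to 9.68 FPKM (Cnp) on average in WT. Mog and Opalin had a mean under 1 FPKM and were not tested. Of the other 7, 6 had a lower mean log2 level in Kdm6b-cKO (median log2 fold change -1.82 against -0.25 over all 16250 genes tested). In limma, 0 of the 7 and 0 of all genes tested were called lower (0.0%). At an unadjusted p under 0.05, 2 of the 7 (Mbp and Pllp) were lower, against 7.77% of all genes. In none of the 7 did the groups stay apart, against 0.683% of all genes in which every Kdm6b-cKO value was under the lowest WT value.

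Other lists also held lower genes at P1, and their part in the myelin values was not tested. Of all 16250 genes tested, 10272 were lower, and 7.77% were lower at an unadjusted p under 0.05. All 9 tested transcription factors of the lineage were lower (3 at an unadjusted p under 0.05, median -1.06), as were 11 of 13 precursor and pre-myelinating genes (4, median -0.66). Of 18 further sheath genes 12 were lower (0, median -0.92), and of 10 astrocyte markers 8 (4, median -0.53). The astrocyte sums were 206 to 312 FPKM in WT libraries and 132 to 361 FPKM in Kdm6b-cKO libraries. Lower genes also numbered 9 of 11 lipid and mature oligodendrocyte enzymes, 8 of 10 microglia, 7 of 10 glutamatergic and 7 of 10 endothelial and mural markers. For Schwann cell markers they were 5 of 5, for GABAergic 6 of 11 and for leptomeningeal, choroid plexus and ependymal 3 of 10. Kdm6b-cKO libraries 0 and 1, those with the high 45S precursor, had the lowest sums of the 9 myelin genes, 5.86 and 10.2 FPKM. The other 4 had 19.7 to 42.6 FPKM and the WT libraries 21.3 to 39.2 FPKM. Libraries 0 and 1 were also shallow, at 338000 and 816000 effective reads against 2654000 to 2813000 in Kdm6b-cKO libraries 2 to 4. Kdm6b-cKO library 5, shallower still at 187000, had the highest sum (42.6 FPKM). The part of depth in these sums was not tested.

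**Figure D4:**
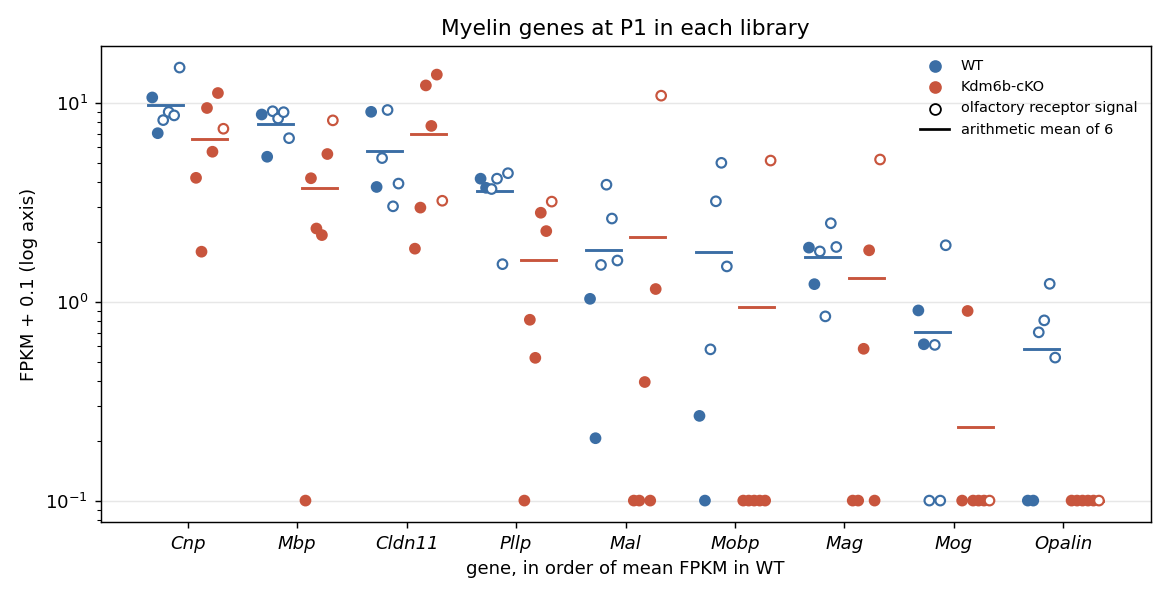
FPKM + 0.1 of the 9 myelin genes at P1 on a log axis, with 1 point for each of 6 WT (blue) and 6 Kdm6b-cKO (red) libraries and a line at the arithmetic mean. Open points are libraries with olfactory receptor signal, and points at 0.1 are libraries listed at 0. The open red point, Kdm6b-cKO library 5, is the highest Kdm6b-cKO library for Mbp, Pllp, Mal, Mobp and Mag.

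Cnp and Mbp were the most abundant of the 9 in WT at P1. Mbp lay between 5.27 and 9.00 FPKM in the WT libraries (median 8.46) and between 0 and 8.08 FPKM in those of Kdm6b-cKO (median 3.16). In Kdm6b-cKO, 4 of 6 libraries were below all WT libraries and library 0 was listed at 0. Its log2 fold change of -1.85 (standard error 0.83) had p = 0.0130 in an exact permutation test and an adjusted p of 0.323 in limma. Cnp lay between 6.95 and 15.0 FPKM in the WT libraries (median 8.75) and between 1.69 and 11.1 FPKM in those of Kdm6b-cKO (median 6.46), with a log2 fold change of -0.74 (standard error 0.42, limma adjusted p = 0.436).
Pllp lay between 1.45 and 4.34 FPKM in the WT libraries (median 3.86) and between 0 and 3.09 FPKM in those of Kdm6b-cKO (median 1.44), which stood for 74 and 27 reads in all. Its log2 fold change was -1.82 (standard error 0.79), with p = 0.0346 in an exact permutation test and a limma adjusted p of 0.310. Cldn11 averaged 5.62 ± 2.75 and 6.88 ± 5.15 FPKM (SD, n = 6 each, WT first), or 112 and 162 reads. Its log2 fold change was 0.04 (standard error 0.54, 95% interval -1.10 to 1.18, limma adjusted p = 0.980), and the sign turned under quantile normalization (-0.03) and with the olfactory receptor side as a term (-0.21), while it was 0.92 among libraries over 1000000 effective reads (95% interval 0.10 to 1.73, limma adjusted p = 0.146) and 0.66 with library weights. Cldn11 is also known in cells of the arachnoid barrier. The leptomeningeal, choroid plexus and ependymal sum at P1 spanned 220 to 578 FPKM among WT libraries and 312 to 1034 FPKM among Kdm6b-cKO libraries, and its part in the Cldn11 value was not tested.
Opalin had 8 reads over 4 WT libraries and 0 reads in all 6 Kdm6b-cKO libraries, and a count of 0 allows up to 3 reads. The 4 WT libraries with Opalin reads were the 4 with olfactory receptor signal, at 0.424 to 1.13 FPKM. Mog had 10 WT reads and 1 Kdm6b-cKO read. These counts were too few to read a genotype difference from. Counting error alone is meant here, since reads amplified by PCR are not independent molecules. Sox10, by comparison, was already apart at P1, at 4.84 to 6.65 FPKM among WT libraries and 1.16 to 3.77 FPKM among Kdm6b-cKO libraries (log2 fold change -1.41, standard error 0.39), without passing over all genes (limma adjusted p = 0.183). It was seen in 10 to 51 reads of each WT library. The Kdm6b-cKO libraries held 1, 3, 14, 26, 26 and 1 Sox10 reads, in the order of their numbers, so several of these values also rest on few reads.

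Mag, Mobp and Mal at P1 moved with 1 library. Mag lay between 0.745 and 2.39 FPKM in the WT libraries (median 1.73) and between 0 and 5.10 FPKM in those of Kdm6b-cKO (median 0.240), with 3 libraries at 0. Mobp reached 4.90 FPKM in WT (median 0.942) and was at 0 in 1 library, and 5 of 6 Kdm6b-cKO libraries were at 0 while library 5 had 5.04 FPKM. Mal lay between 0.106 and 3.78 FPKM in the WT libraries (median 1.47) and between 0 and 10.8 FPKM in those of Kdm6b-cKO (median 0.147), with 3 libraries at 0. Library 5, the shallowest of all at 187000 effective reads and the Kdm6b-cKO library with olfactory receptor signal, was the highest for all 3. Because of it, the arithmetic mean of Mal was higher in Kdm6b-cKO (2.02 FPKM) than in WT (1.72 FPKM) although the log2 fold change was -1.68 (standard error 1.18, limma adjusted p = 0.526). The log2 fold changes of Mag and Mobp were -1.92 and -2.14 (standard errors 1.02 and 1.28, limma adjusted p = 0.400 and 0.457). Without library 5, the log2 fold changes of Mag and Mal were -2.65 and -2.62, and Mobp had too low a mean to be tested. Mbp and Pllp moved with Kdm6b-cKO library 0, where both were listed at 0, and without it had log2 fold changes of -0.97 and -1.16. That library had only 338000 effective reads, so a value of 0 there may be a low level that was missed.
The P1 differences were also read within the olfactory receptor sides, of which the side with signal holds that same library 5 as its only Kdm6b-cKO library. Among the 5 libraries with that signal (4 WT and 1 Kdm6b-cKO), the log2 differences of Mag, Mobp and Mal were 1.67, 1.41 and 2.28, and those of Mbp and Pllp were -0.01 each. Exact permutation tests on this side cannot give a p under 0.2. Among the 7 libraries without it (2 WT and 5 Kdm6b-cKO), the log2 differences were -2.07 for Mbp, -2.58 for Mag, -2.36 for Pllp, -0.71 for Mobp and -1.10 for Mal, with exact permutation p from 0.143 to 0.524. With the side as a term of the limma fit, Mobp and Mal had log2 fold changes of 0.05 and 0.11, and 5 of the 7 genes tested were lower.

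Whether the genotype difference changed with age was tested in limma over all 24 libraries for the 7 genes tested at both ages. Of 12644 genes, 1 passed (0.00791%), and 0 of the 7 did, with 0 of the 7 at an unadjusted p under 0.05. The difference of the log2 fold changes, P30 less P1, was 0.59 for Mbp (standard error 0.89), 0.33 for Mag (0.98), 1.41 for Mobp (1.24), 0.36 for Cnp (0.49), 1.28 for Mal (1.25), -0.75 for Cldn11 (0.83) and 0.35 for Pllp (0.91), with adjusted p from 0.651 to 0.902. The signs for Mbp, Mag, Mobp and Pllp turned with a pseudocount of 1. Levels at P1 and P30 came from separately normalized tables and were not compared by a test. In WT, the mean of Mag was 1.59 FPKM at P1 and 62.8 FPKM at P30 and that of Mbp 7.78 and 123 FPKM, while those of Cldn11 were 5.62 and 6.37 FPKM.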

How the data were processed

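Reads were mapped by the authors with HISAT2 (build mm9) and quantified with Cuffdiff, per the submitters' processing notes and the study's methods. The tables used, one for each age, hold FPKM values that the authors deposited for 25135 genes in 12 libraries each, scaled by Cuffdiff between libraries and separately for each age. Columns of the authors' own Cuffdiff comparison (fold changes, p and q values) were not used. Library columns carry the numbers 0 to 5 within a genotype and were mapped to groups by name. Same-numbered libraries of the genotypes did not deviate together (correlation of deviations from -0.30 to 0.33 at P30 and from -0.18 to 0.23 at P1), so the numbers were not used as pairs.

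Genotypes were compared with limma 3.58.1 in R 4.3.3 on log2(FPKM + 0.1), by lmFit and a two-sided eBayes that allows the variance to follow the level. Genes entered if the 12 libraries of an age averaged 1 FPKM or more. A call needed a Benjamini-Hochberg adjusted p under 0.05 over all genes tested and more than 2-fold. For low genes, a fold change on this scale depends on the pseudocount and on libraries at 0, and can differ from the ratio of the means in either direction. That of Mag at P1 was -1.92, against -0.57 with a pseudocount of 1 and -3.55 with 0.01. The arithmetic mean of Mag in Kdm6b-cKO was then 76.7% of that in WT. Single genes and within-library ratios were compared with exact two-sided permutation tests over all 924 splits. The script was tested on simulated data. Whole reads were recovered (within 0.01 read) for Mog, Cldn11, Opalin, Pllp and Sox10 only, and no count test was run. Everything else was computed under Python 3.11.15 (scipy 1.17.1, numpy 2.4.6, pandas 2.3.3) and drawn by matplotlib 3.10.9. Positions are from GENCODE on mm9 (NCBIM37), and promoter sequences from RefSeq (GRCm38.p6). The genes, lists, motifs and tests were chosen with earlier results of these data known. Genes outside the 9 were named if called on a list, or by level where a list had none, or as known regulators, or by correlation. One item that this rule would name is not reported here.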

Additional observations from a re-analysis of the deposited data

Results flagged for a closer look

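Of 35 sets of 6 libraries, 9 had 1 library far from the other 5 by Dixon's test on FPKM. Its rate of about 1 in 20 by chance holds for independent, normally spread values. These sets share libraries, and some are at 0 in all but 1 library, so the 9 cannot be set against that rate. Library 5 of Kdm6b-cKO at P1, the shallowest of all, stood apart as the highest for Mag (5.10 FPKM), Mobp (5.04 FPKM) and Mal (10.8 FPKM). Kdm6b-cKO library 1 at P1 stood apart for Mog, with 0.800 FPKM against 0 in the others, which was a single read. WT library 4 at P1 was far below the other WT libraries for Pllp (1.45 FPKM, the next at 3.59 FPKM). At P30, WT library 0 stood apart as the highest for Mog (26.0 FPKM), Mal (14.2 FPKM) and Cldn11 (16.4 FPKM), and it is also the WT library with the low 45S precursor. Kdm6b-cKO library 2 at P30 stood apart for Mag (34.1 FPKM, the next at 20.4 FPKM), while it was the lowest Kdm6b-cKO library for Mbp, Mog and Cldn11.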

How the results depend on the processing

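The log2 fold changes of the 9 genes at P30 stayed negative under all 24 alternatives tried, except Cldn11 with library weights (0.069). They ranged from -1.73 to -1.54 for Mag, from -1.38 to -1.15 for Mbp, from -1.32 to -0.97 for Mog, from -2.39 to -1.15 for Opalin and from -1.89 to -0.94 for Pllp. Mag kept its call except with the replicate block. Of the 9 genes, 2 were called, against 5 with the 45S side as a term, 4 with the Y-linked level as a term and 1 to 2 with a library left out. All P30 libraries carried Y-linked signal, so this term does not set libraries with that signal against libraries without it. Over all genes at P30, 30 were called lower, against 18 at a mean of at least 5 FPKM, 329 with library weights, 365 with the 45S term and 1 to 33 with a library left out (under 20 without WT library 1, 2, 3, 4 or 5 or Kdm6b-cKO library 0, 1, 3 or 5). The 7 called higher became 12 under quantile normalization and with the Y-linked term, 201 with weights, 185 with the 45S term and 1 to 10 with a library left out. At P1, 0 genes were called lower, against 1 without the intensity trend, 48 among libraries over 1000000 effective reads and 0 to 27 with a library left out, and 0 were called higher, against 48 and 0 to 24. Both highest counts came without Kdm6b-cKO library 4. The age difference passed in 1 gene, against 10 with a pseudocount of 1, 2 with no filter, 3 at 5 FPKM, 28 under quantile normalization, 0 without the trend, 521 with weights and 0 to 92 with a library left out (92 without Kdm6b-cKO P1 library 4). Of the 36 ratios, 0 passed, against 7 with a pseudocount of 1 and 0 to 7 with a library left out.

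Signs turned at P1 for Cldn11 under quantile normalization (-0.034), with the receptor side (-0.21) or the Y-linked level (-0.18) as a term and without any 1 of WT libraries 1, 4 and 5 and Kdm6b-cKO libraries 2, 3 and 4 (-0.24 to 0.34 over all libraries left out), and for Mobp (0.053) and Mal (0.11) with the receptor side as a term. On the side with receptor signal, whose 1 Kdm6b-cKO library is the shallow library 5, the values of Mag (1.67), Mobp (1.41), Mal (2.28) and Cldn11 (-0.61) had the other sign, which restates that library. The age difference turned for Mbp with a pseudocount of 1 (-0.058), weights (-0.032) and without Kdm6b-cKO P1 library 0 (-0.30, with 0.98 as the highest over libraries left out), for Mag with a pseudocount of 1 (-0.98), quantile normalization (-0.80) and without P1 library 0, 1 or 4 (-0.080 each, with 1.06 as the highest), for Mobp with a pseudocount of 1 (-0.023), and for Pllp with a pseudocount of 1 (-0.20), quantile normalization (-0.091) and without P1 library 0 (-0.31, with 0.75 as the highest). The cause was not tested.

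With the replicate block, a fit that treats equal library numbers as pairs, 0 genes were called lower and 0 higher at P30, 0 of the 9 genes passed (Mag adjusted p = 0.0644, limma) and the age difference passed in 0 genes. A library correlated best with its own number in 1 of 12 cases. This gave no sign that equal numbers mark pairs, but with 6 libraries per genotype it cannot exclude pairs.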
